A study of Mus musculus with 9 samples.

Results

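The 10 genes described here encode the cell-surface heparan sulfate proteoglycans of the mouse, the 4 syndecans (Sdc1 to Sdc4) and the 6 glypicans (Gpc1 to Gpc6). They were taken by gene symbol from the probe sets of an expression array that carry a single symbol, each had exactly 1 such probe set, and together they are 10 of the 19938 genes tested. Expression was measured on 9 arrays in 3 groups of 3. The osteosarcoma group held 3 cell lines, here lines 1, 2 and 3 with 1 array each, grown from tumours of adult C57BL/6 mice of the genotype Osx-Cre p53fl/fl Rbfl/fl, in which Cre, expressed from the Osx promoter of bone-forming cells, removes both tumour suppressor genes. Per the labels all 3 lines are fibroblastic, line 2 is from a male and lines 1 and 3 are from females, and the cultures were subconfluent, proliferating and below passage 8. Osteoblasts were cultures of Kusa4b10, a bone marrow stromal line of the mouse, after 21 days in ascorbate-supplemented medium. Pre-osteoblasts were undifferentiated Kusa4b10 cultures. All 6 Kusa4b10 arrays share 1 line, for which the labels give no genotype, strain, age or sex. A difference of tumour state cannot be told apart from the origin and culture history of the lines, nor differentiation from the medium, the time spent in it or the growth of the cells.

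Syndecans are transmembrane proteins and glypicans are tethered to the outer leaflet of the membrane by a glycosylphosphatidylinositol anchor. Both carry long heparan sulfate chains that bind growth factors, morphogens, chemokines and matrix proteins, and so act as co-receptors or as local stores for FGF, Wnt, hedgehog, BMP and other ligands. Syndecan tails also bind cytoskeletal and scaffold proteins, and the outer domains of both families can be shed. In bone, FGF, Wnt, BMP and hedgehog signals all act on the osteoblast lineage.

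A promoter is shown for each member that passed the test in at least 1 comparison and has an entry in the RefSeq promoter table (build GRCm38.p6), so that the sequence can be read beside the values that follow. The table held 7 of the 10 members by symbol. Each line gives the 250 bases before the annotated start, 5′ to 3′ on the gene's strand, for Sdc1 (chr12:8771146-8771395, plus strand), Sdc3 (chr4:130792287-130792536, plus strand), Gpc2 (chr5:138279938-138280187, minus strand) and Gpc4 (chrX:52164924-52165173, minus strand). Capitals mark matches on either strand to the GC box GGGCGG, the E box CANNTG or the letters TATAA.
Sdc1: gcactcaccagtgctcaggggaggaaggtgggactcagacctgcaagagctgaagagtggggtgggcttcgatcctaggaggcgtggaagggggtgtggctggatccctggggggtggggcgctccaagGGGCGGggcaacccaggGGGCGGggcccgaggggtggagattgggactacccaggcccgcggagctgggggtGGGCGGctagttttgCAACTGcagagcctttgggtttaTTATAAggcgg
Sdc3: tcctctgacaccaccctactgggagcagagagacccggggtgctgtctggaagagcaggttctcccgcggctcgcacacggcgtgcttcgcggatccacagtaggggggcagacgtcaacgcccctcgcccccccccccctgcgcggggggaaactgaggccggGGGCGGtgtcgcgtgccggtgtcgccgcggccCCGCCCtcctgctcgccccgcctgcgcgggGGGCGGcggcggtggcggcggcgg
Gpc2: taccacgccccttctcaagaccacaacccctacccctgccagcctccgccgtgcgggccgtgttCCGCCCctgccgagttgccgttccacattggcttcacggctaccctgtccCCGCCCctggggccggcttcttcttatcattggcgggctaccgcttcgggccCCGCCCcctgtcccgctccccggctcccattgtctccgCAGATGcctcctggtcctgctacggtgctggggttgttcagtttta
Gpc4: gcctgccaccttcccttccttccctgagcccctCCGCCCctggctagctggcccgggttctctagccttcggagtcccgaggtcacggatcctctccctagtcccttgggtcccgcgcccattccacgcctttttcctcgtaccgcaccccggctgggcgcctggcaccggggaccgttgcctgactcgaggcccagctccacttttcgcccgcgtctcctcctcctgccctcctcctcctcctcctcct
The windows are rich in G and C, with 66.0% for Sdc1, 76.4% for Sdc3, 66.4% for Gpc2 and 68.4% for Gpc4. Sdc1, Sdc3 and Gpc2 held 3 GC boxes each and Gpc4 held 1. A GC box was present in 32.7% of the 32817 windows of the table. Members that passed in no comparison also held GC boxes, 4 in Sdc4, 3 in Gpc3 and 1 in Gpc5. Sdc1 alone of the 4 windows printed had TATAA letters, at position -10 from the start and, overlapping it, on the other strand at -11, against 22.8% of all windows. Of the windows not printed, those of Sdc4 and Gpc5 had these letters and that of Gpc3 did not. An E box stood in the windows of Sdc1 and Gpc2 and in 66.2% of all windows, and the E2F-like letters TTTNNCGC, also searched on both strands and present in 4.28% of all windows, were in none of the 4. These are letter matches and not shown to be binding sites.

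Values are log2 levels as normalized by the authors, and a level is compared between groups for the same gene only. Over all probe sets the array medians were 7.43 to 7.56. Precision is limited by the number of arrays. Markers were read as the mean log2 level of each list. Osteoblast markers lay between 8.89 and 9.45 in the osteosarcoma lines, against 11.3 to 12.1 in osteoblasts and 8.68 to 9.12 in pre-osteoblasts. Cycling-cell markers lay between 11.6 and 11.97 in osteosarcoma, against 8.81 to 10.02 in osteoblasts and 11.2 to 11.96 in pre-osteoblasts. Adipocyte markers lay between 7.64 and 8.18 in osteosarcoma, against 11.1 to 11.9 in osteoblasts and 8.27 to 8.81 in pre-osteoblasts. The osteosarcoma lines thus had 5 of 9 osteoblast and 8 of 8 adipocyte markers lower than osteoblasts and 8 of 8 cycling markers higher. The osteoblast cultures had 7 of 9 osteoblast and 6 of 8 adipocyte markers higher than pre-osteoblasts and 8 of 8 cycling markers lower. The part of these cell states in the differences below was not tested. Of 7 haematopoietic and 6 epithelial markers, 0 passed in any of the 3 comparisons, and their mean levels stayed within 6.31 to 6.38 and 6.93 to 7.11 on all 9 arrays.

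Tests were made with limma on all 9 arrays, with two-sided p values adjusted by Benjamini-Hochberg over 19938 genes and a call at an adjusted p below 0.05. Differences are between group means, in log2 units, with the SE of the fit after ±. The fit pools the spread between the osteosarcoma lines with that between cultures of the Kusa4b10 line. In all, 6 of the 10 members passed in at least 1 comparison. Osteosarcoma against osteoblasts had 3 members lower (Sdc1, Sdc2, Gpc1) and 1 higher (Gpc4), 4 of 10, where 27.4% of all genes were called, 12.7% lower and 14.7% higher. Osteosarcoma against pre-osteoblasts had Gpc2 and Gpc4 higher and Sdc1 lower, 3 of 10, where 23.5% of all genes were called, 9.96% higher and 13.5% lower. Osteoblasts against pre-osteoblasts had 4 members higher (Sdc2, Sdc3, Gpc1, Gpc4) and 0 lower, where 26.1% of all genes were called, 10.3% higher and 15.8% lower. The count of 4 fell to 2 when the first osteoblast or the third pre-osteoblast culture was left out. In each comparison the 3 arrays of one group lay wholly apart from those of the other for 5 of 10 members, against 38.7%, 35.6% and 44.2% of all genes in the same order. Median differences over the 10 members were 0.02, 0.08 and 0.07 log2 in that order, against -0.02, -0.02 and 0.00 over all genes. The osteosarcoma and osteoblast arrays each enter 2 of the comparisons, and so do the pre-osteoblast arrays, so the comparisons are not independent of each other. In cell populations such as these, fewer cells of a type and less RNA per cell cannot be told apart.

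**Figure D1:**
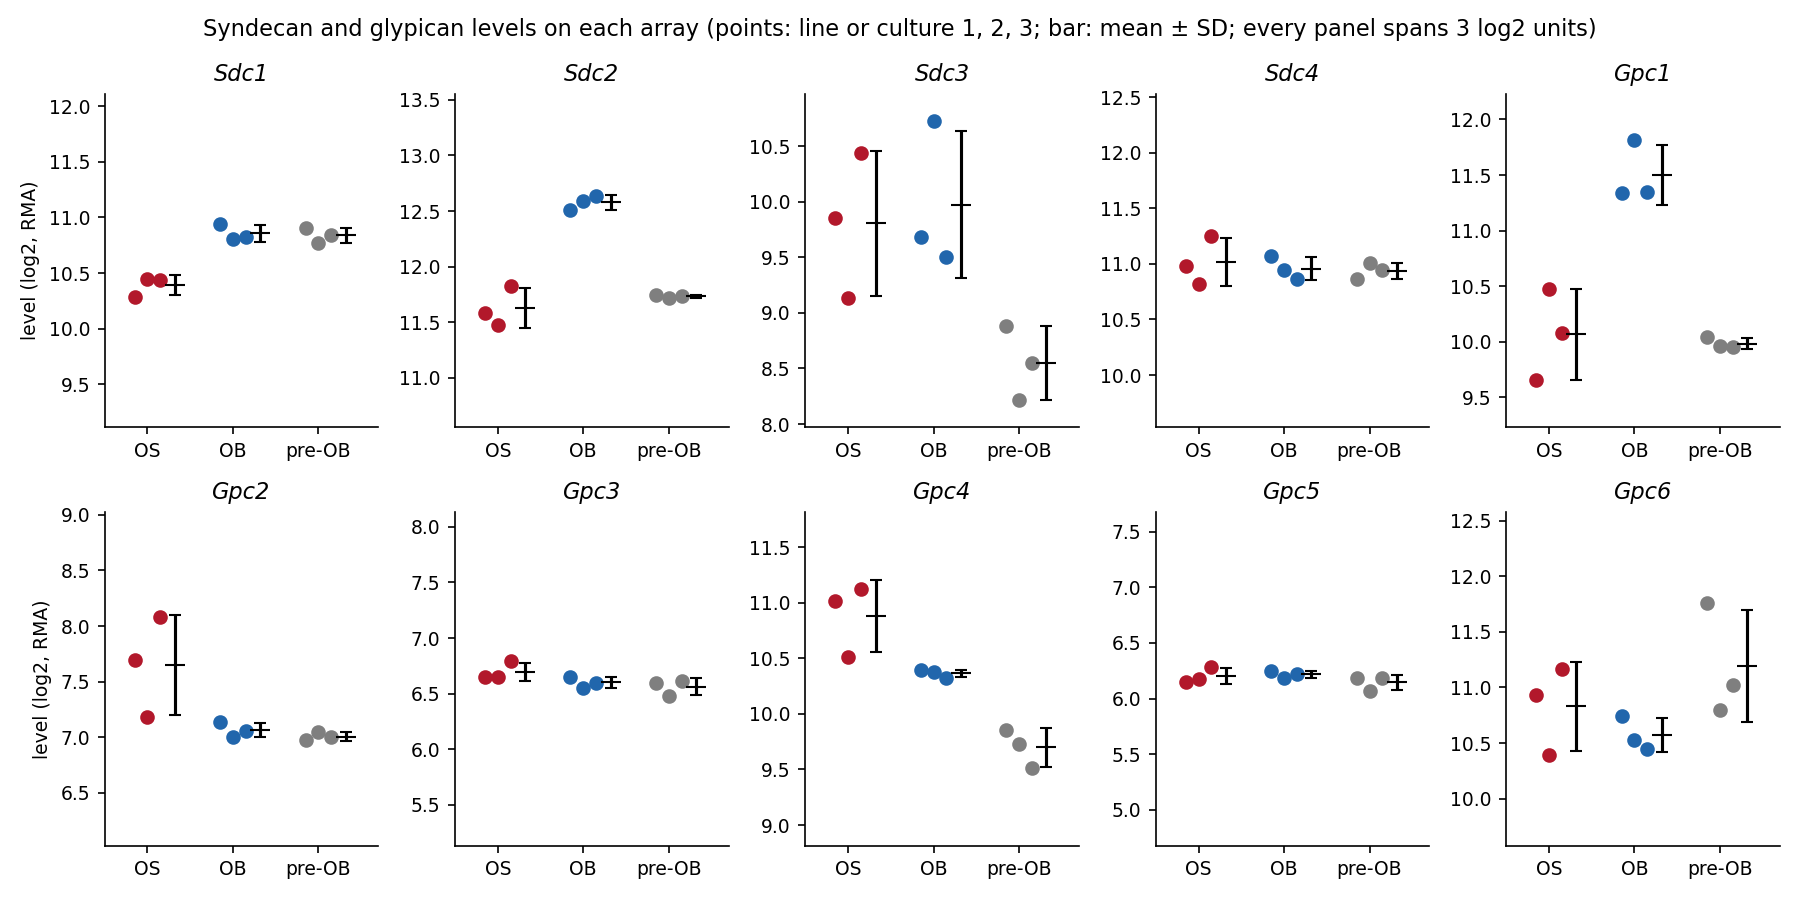
Log2 level (y axis, RMA) of each syndecan and glypican on every array, by group (x axis: OS, osteosarcoma lines; OB, osteoblasts; pre-OB, pre-osteoblasts). Points are line or culture 1, 2 and 3 from left to right, and every panel spans 3 log2 units on its own scale. Bars are mean ± SD (n = 3), between different lines for OS and between cultures of 1 line for OB and pre-OB. Sdc2 and Gpc1 stand highest in osteoblasts, Sdc1 stands lowest in osteosarcoma, and Gpc4 steps down across the 3 groups.

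Sdc1, the epithelial and plasma cell syndecan CD138, was the member set apart from both Kusa4b10 states by a lower level in the tumour lines. It was measured at 10.29, 10.45 and 10.44 in osteosarcoma lines 1, 2 and 3, against 10.94, 10.80 and 10.83 in the osteoblast cultures and 10.91, 10.77 and 10.84 in the pre-osteoblast cultures. All 3 lines lay below all 6 Kusa4b10 arrays, and the Kusa4b10 states overlapped. The difference was -0.47 ± 0.07 from osteoblasts (SE of the fit, 1.38-fold lower, adjusted p = 0.00168) and -0.45 ± 0.07 from pre-osteoblasts (1.36-fold lower, adjusted p = 0.00256). Osteoblasts and pre-osteoblasts differed by 0.02 (95% interval -0.14 to 0.18, adjusted p = 0.891). Of 6 plasma cell markers, 0 were higher in osteosarcoma than in either Kusa4b10 state, and 1 was lower than in osteoblasts.

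Sdc2, the syndecan most typical of mesenchymal and bone-forming cells, was highest in differentiated osteoblasts. It stood at 11.58, 11.48 and 11.83 in lines 1, 2 and 3, against 12.51, 12.59 and 12.64 in osteoblasts and 11.74, 11.72 and 11.74 in pre-osteoblasts. The osteoblast cultures lay above every other array, while the range of the lines enclosed the pre-osteoblast values. Sdc2 was 1.93-fold lower in the lines than in osteoblasts (-0.95 ± 0.09, adjusted p = 2.06e-04) and in osteoblasts 1.80-fold higher than before differentiation (0.85 ± 0.09, adjusted p = 3.58e-04). The lines differed from pre-osteoblasts by -0.10 (95% interval -0.30 to 0.10, adjusted p = 0.479). The calls of Sdc1 and Sdc2 held in every alternative fit that was run, also with any 1 array left out.

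Sdc3, a syndecan best known from the nervous system and from cartilage and muscle progenitors, varied most of all members between the lines and between the osteoblast cultures. Its levels were 9.85, 9.13 and 10.43 in lines 1, 2 and 3, against 9.68, 10.73 and 9.50 in osteoblasts and 8.88, 8.22 and 8.55 in pre-osteoblasts. The pre-osteoblast cultures lay below every other array, and lines and osteoblasts overlapped widely. Osteoblasts exceeded pre-osteoblasts by 1.42 ± 0.40 (2.68-fold, adjusted p = 0.0315). This call was lost with 1 array fewer in 4 cases, namely osteoblast culture 1 (0.0587) or 2 (0.0841) and pre-osteoblast culture 2 (0.107) or 3 (0.0840). The difference of osteosarcoma from pre-osteoblasts, 1.26 ± 0.40, did not pass (adjusted p = 0.0555), but it passed without line 2 (1.59, adjusted p = 0.0207), without osteoblast replicate 2 (adjusted p = 0.0310), and with dim genes left out or the arrays rescaled (0.0319 to 0.0485). Osteosarcoma differed from osteoblasts by -0.16 (95% interval -1.09 to 0.76, adjusted p = 0.814), a difference of 0.17 without line 2 and 0.21 without osteoblast replicate 2. Osteoblast replicate 2, the highest array for Sdc3, also had the highest mean of cycling markers among the osteoblast cultures (10.02, against 8.95 and 8.81) and of osteoblast markers (12.14, against 11.58 and 11.32). In the other groups the arrays highest in cycling markers, line 2 (11.97) and pre-osteoblast replicate 2 (11.96), were the lowest for Sdc3. Those highest in osteoblast markers, line 3 (9.45) and pre-osteoblast replicate 1 (9.12), were the highest for Sdc3. The part of these markers in the Sdc3 values was not tested.

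Sdc4, the syndecan of focal adhesions, differed by no more than 0.08 in any comparison. It was at 10.98, 10.82 and 11.25 in lines 1, 2 and 3, against 11.07, 10.94 and 10.86 in osteoblasts and 10.87, 11.01 and 10.94 in pre-osteoblasts. All groups overlapped. The differences were 0.06 for osteosarcoma against osteoblasts (95% interval -0.19 to 0.31), 0.08 against pre-osteoblasts (-0.18 to 0.33) and 0.02 for osteoblasts against pre-osteoblasts (-0.23 to 0.27), with adjusted p values of 0.757, 0.694 and 0.936.

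Among the glypicans, Gpc1 followed the pattern of Sdc2. Gpc1, a glypican that modulates FGF and BMP signals, had levels of 9.65, 10.47 and 10.08 in lines 1, 2 and 3, against 11.34, 11.81 and 11.35 in osteoblasts and 10.04, 9.96 and 9.95 in pre-osteoblasts. The osteoblast cultures stood above all other arrays, and the lines spread to both sides of the pre-osteoblasts. Gpc1 was 2.7-fold lower in the lines than in osteoblasts (-1.43 ± 0.20, adjusted p = 0.00136). Osteoblasts exceeded pre-osteoblasts 2.86-fold (1.52 ± 0.20, adjusted p = 0.00114), the widest gap of any member in the 3 comparisons. Between osteosarcoma and pre-osteoblasts it differed by 0.08 (95% interval -0.38 to 0.55, adjusted p = 0.828), and by -0.12 without line 2. Both calls of Gpc1 held in every alternative that was run.

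Gpc4, a glypican that takes part in Wnt and FGF signalling, had a different order, with osteosarcoma above osteoblasts and osteoblasts above pre-osteoblasts. It was measured at 11.01, 10.51 and 11.12 in lines 1, 2 and 3, against 10.39, 10.37 and 10.33 in osteoblasts and 9.86, 9.73 and 9.51 in pre-osteoblasts. No 2 groups overlapped. Osteosarcoma exceeded pre-osteoblasts by 1.18 ± 0.16 (2.27-fold, adjusted p = 0.00123), a call that held in every alternative. Osteoblasts exceeded pre-osteoblasts by 0.66 ± 0.16 (adjusted p = 0.0146), which was lost without osteoblast replicate 1 (0.0517) or pre-osteoblast replicate 3 (0.0562). The step of osteosarcoma over osteoblasts was 0.52 ± 0.16 (adjusted p = 0.0400). It was lost without line 1 (0.119) or 3 (0.105), any osteoblast culture (0.0894 to 0.112) or the second pre-osteoblast culture (0.0627), and also with the arrays quantile-normalized again (0.0576) or only these groups in the fit (0.0753).

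Gpc2, known as a glypican of the developing nervous system, was higher in the tumour lines on average, and the lines differed. It stood at 7.69, 7.18 and 8.08 in lines 1, 2 and 3, against 7.14, 7.005 and 7.06 in osteoblasts and 6.97, 7.04 and 7.01 in pre-osteoblasts. All lines lay above all Kusa4b10 cultures, line 2 by a small margin. The difference from pre-osteoblasts was 0.64 ± 0.19 (1.56-fold, adjusted p = 0.0415), and that from osteoblasts, 0.58 ± 0.19, did not pass (adjusted p = 0.0532). The first was lost without any 1 array other than line 2, with adjusted p values of 0.103 and 0.0633 without lines 1 and 3, 0.0620 to 0.0677 without an osteoblast culture and 0.0917 to 0.112 without a pre-osteoblast culture, and also with only these groups in the fit (0.108). The difference from osteoblasts was 0.37 without line 3 (adjusted p = 0.0899). Without line 2 it was 0.82 and passed (adjusted p = 0.00157), as it did with the dimmest genes left out, the arrays rescaled, a variance trend or a weight per group (0.0329 to 0.0484). Osteoblasts and pre-osteoblasts differed by 0.06 (95% interval -0.38 to 0.50, adjusted p = 0.870). Of 6 neuronal markers, 2 were higher in osteosarcoma than in each Kusa4b10 state, and the mean level of that list was 7.21 to 7.29 in osteosarcoma, against 6.90 to 7.10 in osteoblasts and 6.86 to 6.92 in pre-osteoblasts. Its part in the Gpc2 values was not tested.

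Gpc6, a glypican that stimulates hedgehog signalling in the growth plate, did not pass in any comparison. It was at 10.93, 10.39 and 11.16 in lines 1, 2 and 3, against 10.75, 10.53 and 10.44 in osteoblasts and 11.76, 10.80 and 11.02 in pre-osteoblasts. The pre-osteoblasts lay above the osteoblasts without overlap, with replicate 1 far above the others, and the lines overlapped both. The difference of osteoblasts from pre-osteoblasts was -0.62 ± 0.27 (95% interval -1.24 to -0.00, adjusted p = 0.139), and -0.34 without pre-osteoblast replicate 1 (adjusted p = 0.362). Osteosarcoma differed by 0.26 from osteoblasts (-0.36 to 0.88) and by -0.37 from pre-osteoblasts (-0.98 to 0.25), with adjusted p values of 0.553 and 0.402.

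Gpc3 and Gpc5 stayed at low and nearly even levels. Gpc3, a regulator of body growth through hedgehog signalling, was at 6.65, 6.65 and 6.79 in lines 1, 2 and 3, against 6.65, 6.55 and 6.60 in osteoblasts and 6.60, 6.48 and 6.62 in pre-osteoblasts. Gpc5, which stimulates hedgehog signalling in rhabdomyosarcoma cells, was at 6.15, 6.18 and 6.28 in the lines, against 6.25, 6.18 and 6.22 in osteoblasts and 6.18, 6.07 and 6.18 in pre-osteoblasts. The differences of Gpc3 were between 0.04 and 0.13 and those of Gpc5 between -0.01 and 0.07, with adjusted p values of at least 0.205 and 0.448. Over all genes the mean level had a lower quartile of 6.44 and a median of 7.97. Gpc5 lay under the first mark, Gpc3 and Gpc2 lay between both, and the other 7 members lay above the median. No detection call was used, so whether Gpc3 and Gpc5 were above background was not tested. The reference annotation places Gpc3 beside Gpc4 on the X chromosome and Gpc5 beside Gpc6 on chromosome 14, with no protein-coding gene between them. Within the X-linked pair, Gpc4 passed in all 3 comparisons and the differences of Gpc3 were at most 0.13.

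**Figure D2:**
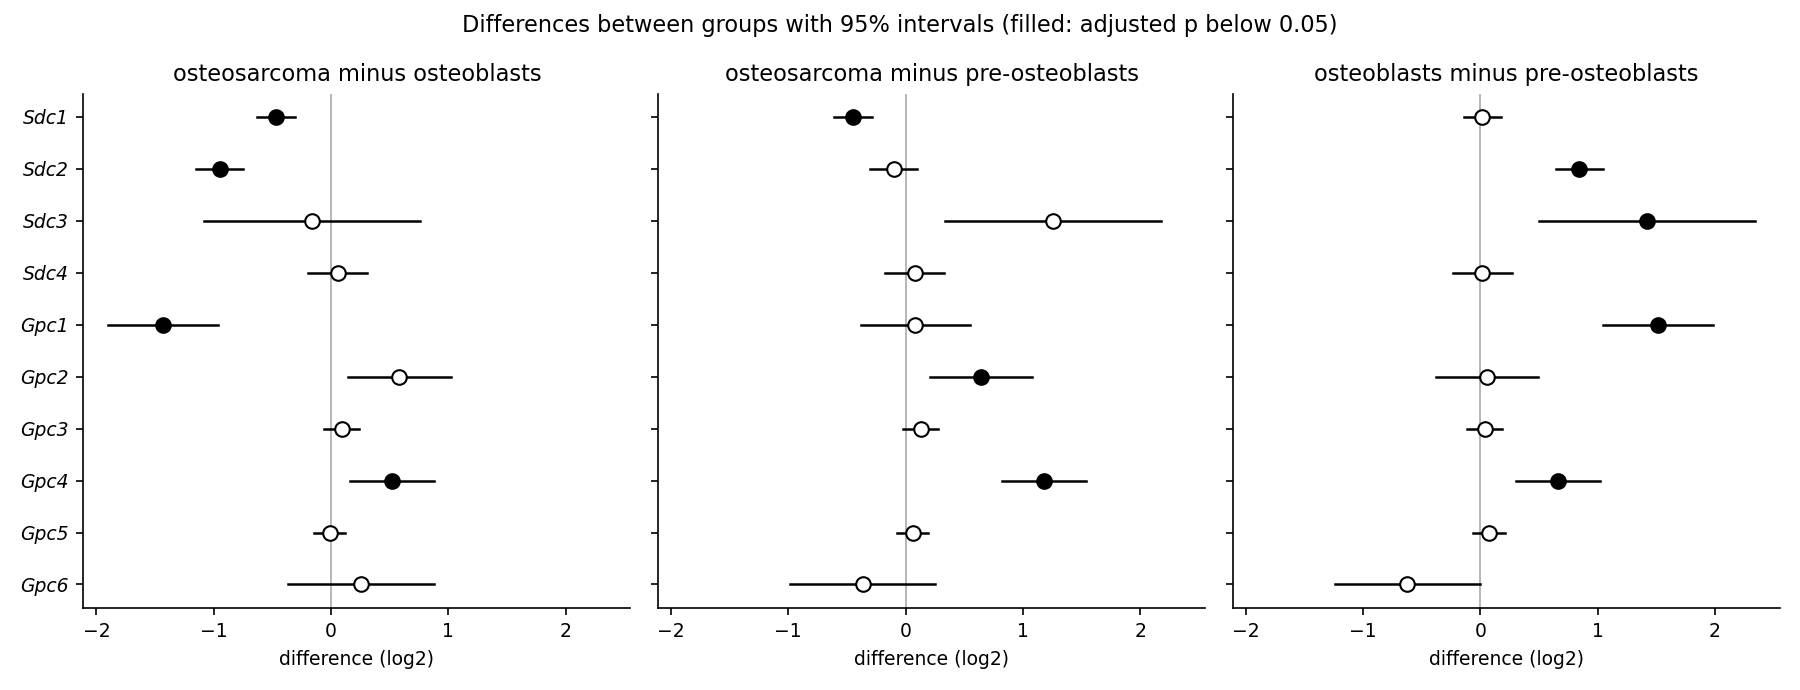
Difference between group means (x axis, log2) for each member with its 95% interval from the limma fit, in the 3 comparisons. Filled points passed at an adjusted p below 0.05. The intervals of Sdc4, Gpc3 and Gpc5 are short and span 0 in all panels, while those of Sdc3 and Gpc6 are the widest.

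The 3 osteosarcoma lines were unequal in several of these genes, and since each line has 1 array their differences carry no test. The range over the lines was 1.30 log2 for Sdc3, wider than for 97.1% of all genes, 0.90 for Gpc2 (93.9%), 0.82 for Gpc1 (92.7%), 0.77 for Gpc6 (91.9%) and 0.61 for Gpc4 (87.1%). The median range of a gene over the lines was 0.22. Sdc4 (0.43) and Sdc2 (0.35) lay above it, and Sdc1 (0.16), Gpc3 (0.14) and Gpc5 (0.135) lay below it. Sdc3 and Gpc6 also varied between cultures of the single Kusa4b10 line, with ranges of 1.23 and 0.30 in osteoblasts and 0.66 and 0.96 in pre-osteoblasts, against medians of 0.16 and 0.17. Gpc1 exceeded the median in osteoblasts only (0.47, against 0.09 in pre-osteoblasts), and Gpc4 in pre-osteoblasts only (0.34, against 0.06 in osteoblasts). Gpc2 varied less there, by 0.13 in osteoblasts and 0.07 in pre-osteoblasts.

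Line 2 was lowest, line 1 intermediate and line 3 highest for 7 of the 10 members, an order found for 18.4% of all genes. The 7 include Gpc3, for which lines 1 and 2 were nearly equal (6.647 and 6.645). Among the 5 members with a range of at least 0.5, 4 had this order (Sdc3, Gpc2, Gpc4, Gpc6), against 20.1% of all genes with such a range. The order was looked at after the values were seen and is given as a description. Gpc1 ran otherwise, with line 2 highest and line 1 lowest, and so did Sdc1, with line 2 just above line 3. Gpc5 increased by line number. Line 2 is the line from a male, and Gpc3 and Gpc4 are X-linked, but sex cannot be told apart from the other differences between single lines. Line 2 also had the highest mean of cycling markers of the lines (11.97, against 11.56 in line 1 and 11.59 in line 3) and the lowest mean of adipocyte markers (7.64, against 8.18 and 8.00), and the part of these in the order was not tested.

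**Figure D3:**
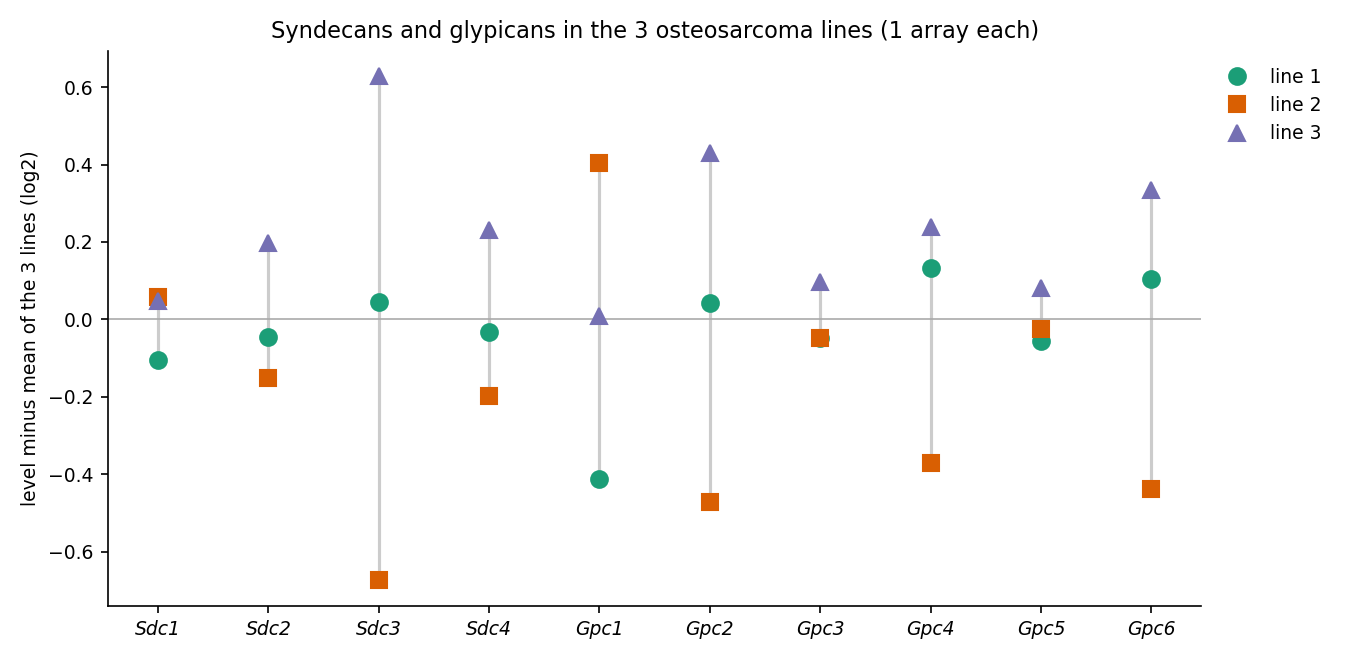
Level of each member in osteosarcoma lines 1, 2 and 3 minus the mean of the 3 lines (y axis, log2), 1 array per line. Line 2 lies at the bottom and line 3 at the top for Sdc2, Sdc3, Sdc4, Gpc2, Gpc4 and Gpc6, and Gpc1 has line 2 at the top. For Gpc3 the points of lines 1 and 2 coincide.

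For the 3 members with a group difference of at least 1 log2, the genes with the nearest profile over the 9 arrays were listed by the root mean square difference after centring. Genes with clone-like names, such as those ending in Rik, were left out of the ranking and of its medians. Nearest to Gpc1 were Fam180a (0.11), Ncf1, a subunit of the phagocyte NADPH oxidase (0.18), and the small nucleolar RNA Snora3 (0.21). The median over the genes ranked was 0.74. Nearest to Sdc3 were Cryab, a small heat shock protein (0.22), Omd, the leucine-rich proteoglycan osteomodulin of mineralised tissue (0.26), and Nrep (0.27), against a median of 0.81. Nearest to Gpc4 were Galnt2, which starts O-linked glycan chains (0.10), Plscr4 (0.17) and Crem, a cAMP-responsive transcription factor (0.18), against a median of 0.54. All these profiles share the same 9 arrays in 3 groups, and likeness is given as a description.

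The other genes of the pathway are given as counts of those called, to be read beside the 27.4%, 23.5% and 26.1% of all genes called in the 3 comparisons. Of 27 measured genes of heparan sulfate synthesis and sulfation, 6 were higher, 4 lower and 17 not called in osteosarcoma against osteoblasts, with a median difference of 0.08. Hs6st2, a 6-O-sulfotransferase, was higher by 1.73 ± 0.14 (adjusted p = 1.09e-04), and on the lower side were Ndst4, an N-deacetylase and N-sulfotransferase (-2.61 ± 0.38, adjusted p = 0.00159), and Extl1, a glycosyltransferase (-0.62 ± 0.10, adjusted p = 0.00206). In osteosarcoma against pre-osteoblasts 4 were higher, 4 lower and 19 not called (median -0.03), with Glce, the epimerase that makes iduronic acid, at 1.08 ± 0.11 and the 2-O-sulfotransferase Hs2st1 at 0.86 ± 0.07 (adjusted p = 3.36e-04 and 1.41e-04). These counts were 3 and 2 without line 1, 4 and 2 without pre-osteoblast replicate 1, 2 and 2 without replicate 2, and 7 and 3 with the arrays centred on their medians or quantile-normalized again. In osteoblasts against pre-osteoblasts 7 were higher, 8 lower and 12 not called (median 0.04), among them Glce (0.86 ± 0.11, adjusted p = 8.13e-04) and Hs6st2 (-2.02 ± 0.14, adjusted p = 5.43e-05). Without osteoblast replicate 1 these counts were 4 and 4, without replicate 3 or pre-osteoblast replicate 1 they were 5 and 4, and without pre-osteoblast replicate 3 they were 5 and 5.

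Among 16 genes that edit the chains or shed and process the core proteins, 4 were higher and 4 lower in osteosarcoma than in osteoblasts (median -0.11), and 4 higher and 2 lower than in pre-osteoblasts (median 0.00). Sulf1, a sulfatase that removes 6-O-sulfates outside the cell, was higher by 2.71 ± 0.34 and 2.28 ± 0.34 (adjusted p = 7.73e-04 and 0.00222). Heparanase, Hpse, which cleaves the chains, was higher by 1.87 ± 0.27 and 1.69 ± 0.27 (adjusted p = 0.00152 and 0.00301). On the lower side against osteoblasts were Pcsk6, a proprotein convertase (-2.70 ± 0.42, adjusted p = 0.00197), and Mmp14, a membrane protease (-0.64 ± 0.13, adjusted p = 0.00687). Against pre-osteoblasts Sulf2, of the same list as Sulf1, was lower (-1.55 ± 0.47, adjusted p = 0.0452). That call was lost in 6 of 9 fits with 1 array left out, and Sulf2 did not pass against osteoblasts (adjusted p = 0.845). The number lower than in osteoblasts was 2 without line 2, any osteoblast culture or pre-osteoblast replicate 1, and the number lower than in pre-osteoblasts was 1 without any 1 Kusa4b10 array. In osteoblasts against pre-osteoblasts 3 were higher and 1 lower (median -0.01). These were Timp3, an inhibitor of syndecan shedding (1.98 ± 0.13, adjusted p = 4.66e-05), Mmp14 (0.75 ± 0.13, adjusted p = 0.00342) and Pcsk6 (2.39 ± 0.42, adjusted p = 0.00368), and the convertase Furin on the lower side (-0.70 ± 0.08, adjusted p = 4.93e-04). The number lower was 2 without line 1, line 2 or osteoblast replicate 2 and 3 without line 3. Mean levels in osteosarcoma, osteoblasts and pre-osteoblasts were 12.64, 13.07 and 11.09 for Timp3 and 10.05, 10.30 and 11.01 for Furin.

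The 13 cytoplasmic partners of syndecans had 6 higher and 1 lower in osteosarcoma than in osteoblasts (median 0.20), and 0 higher and 6 lower in osteoblasts than in pre-osteoblasts (median -0.23, 1 higher without pre-osteoblast replicate 3). Tiam1, a Rac activator that binds the syndecan tail, was higher in osteosarcoma by 2.46 ± 0.16 than in osteoblasts and by 2.47 ± 0.16 than in pre-osteoblasts (adjusted p = 4.76e-05 and 6.10e-05), and the 1 partner lower than in osteoblasts was Ezr, the membrane-to-actin linker ezrin (-1.19 ± 0.26, adjusted p = 0.0104). Prkca, the protein kinase C that syndecan-4 activates, was higher in osteosarcoma than in osteoblasts (1.09 ± 0.12, adjusted p = 4.20e-04) and lower after differentiation of Kusa4b10 (-1.38 ± 0.12, adjusted p = 1.39e-04). The small GTPase gene Rhog was lower than in pre-osteoblasts both in osteosarcoma (-0.80 ± 0.05, adjusted p = 7.64e-05) and in osteoblasts (-0.92 ± 0.05, adjusted p = 3.30e-05). Against pre-osteoblasts osteosarcoma had 2 partners higher and 3 lower (median -0.02), and 1 higher without line 1 or 3, osteoblast replicate 3 or any pre-osteoblast culture.

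The list of heparan sulfate-binding ligands had 32 measured genes, and binding of each was not tested here. Of these, 8 were higher and 6 lower in osteosarcoma than in osteoblasts (median 0.02), 9 higher and 4 lower than in pre-osteoblasts (median 0.08), and 9 higher and 4 lower in osteoblasts than in pre-osteoblasts (median 0.14). Slit2, a guidance ligand that binds glypican-1, was 1.85 ± 0.28 and 4.63 ± 0.28 higher in osteosarcoma than in osteoblasts and pre-osteoblasts (adjusted p = 0.00193 and 5.06e-05). Wnt5a was higher there by 2.37 ± 0.19 and 3.08 ± 0.19 (adjusted p = 1.06e-04 and 4.67e-05), and the growth factor Igf2 was lower (-4.43 ± 0.34 and -2.75 ± 0.34, adjusted p = 1.03e-04 and 9.33e-04). Pleiotrophin, Ptn, a ligand of syndecan-3, was higher in osteosarcoma than in osteoblasts (3.19 ± 0.31, adjusted p = 2.43e-04) and lower in osteoblasts than in pre-osteoblast cultures (-2.16 ± 0.31, adjusted p = 0.00150). Its mean level was highest in osteosarcoma, at 11.18, against 10.15 in pre-osteoblasts and 7.99 in osteoblasts.

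Of 21 receptors that act with these proteoglycans, 6 were higher and 4 lower in osteosarcoma than in osteoblasts (median -0.01), 9 higher and 3 lower than in pre-osteoblasts (median 0.26), and 7 higher and 4 lower in osteoblasts than in pre-osteoblasts (median 0.07). The Wnt5a receptor Ror2 was 1.35 ± 0.15 and 1.26 ± 0.15 higher in osteosarcoma than in osteoblasts and pre-osteoblasts (adjusted p = 4.92e-04 and 8.00e-04). Fgfr1, an FGF receptor that needs heparan sulfate, had 1.90 ± 0.11 more in osteoblasts than in pre-osteoblasts, and the integrin chain Itgb3 had 1.68 ± 0.18 more (adjusted p = 2.78e-05 and 3.86e-04). In osteosarcoma both lay in between. Mean levels in osteosarcoma, osteoblasts and pre-osteoblasts were 11.82, 12.75 and 10.85 for Fgfr1 and 8.68, 9.71 and 8.03 for Itgb3. Of 10 other heparan sulfate proteoglycans, 1 was higher and 2 lower in osteosarcoma than in osteoblasts (median -0.03), 1 higher and 3 lower than in pre-osteoblasts (median -0.05), and 1 higher and 2 lower in osteoblasts than in pre-osteoblasts (median -0.08). Perlecan, Hspg2, was higher in osteosarcoma than in osteoblasts (0.76 ± 0.11, adjusted p = 0.00166) and lower in osteoblasts than in pre-osteoblast cultures (-0.76 ± 0.11, adjusted p = 0.00184). Serglycin, Srgn, a proteoglycan of secretory granules, ran the other way, with less in the lines than in osteoblasts (-4.60 ± 0.29, adjusted p = 4.59e-05) and more in osteoblasts than in pre-osteoblast cultures (5.86 ± 0.29, adjusted p = 1.66e-05). Agrin, Agrn, was lower in the lines than in pre-osteoblasts (-1.51 ± 0.27, adjusted p = 0.00511). Between the lines and osteoblasts Agrn did not pass (-0.53 ± 0.27, adjusted p = 0.206). Counts this small moved when 1 array was left out: those lower in osteosarcoma than in osteoblasts were 4 without line 1 and those higher 2 without line 2. Those lower than in pre-osteoblasts were 1 without pre-osteoblast replicate 1 or 3, and those higher 0 without replicate 2 or 3. Those lower in osteoblasts than in pre-osteoblasts were 1 without any osteoblast culture or pre-osteoblast culture 1 or 3, and 2 were higher without line 2.

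**Figure D4:**
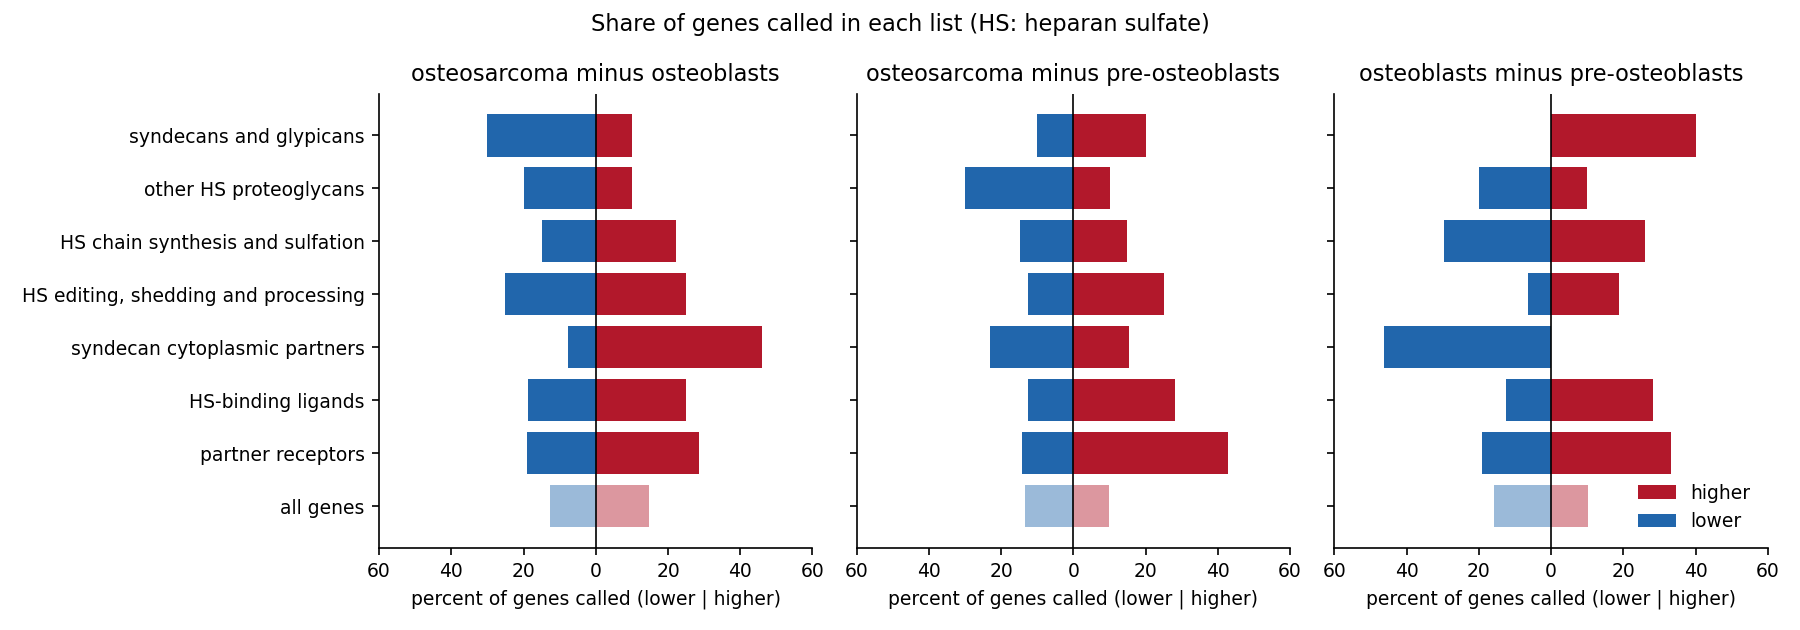
Percent of genes called higher (right of 0) or lower (left of 0) in each list and comparison, with all 19938 genes at the bottom (HS, heparan sulfate; call at an adjusted p below 0.05). In osteoblasts against pre-osteoblasts the syndecans and glypicans called are all on the higher side and the syndecan partners called are all on the lower side, where 10.3% and 15.8% of all genes were called higher and lower.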

How the data were processed

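The members and gene lists were chosen with earlier results of these data known. The deposited values are RMA log2 intensities for each probe set, and mm9 is the build, both per the submitters' processing notes. A version of RMA is not given in the sources used here. The method subtracts background, gives all arrays 1 distribution and combines probes, so differences are relative to the other genes of an array and are compressed near background. Of 35556 probe sets, 21789 had 1 gene symbol in the platform annotation, 1621 several and 12146 none. Of those with 1 symbol, 21698 matched the reference gene table by identifier, which changed 0 symbols. The highest of the probe sets of a gene was used for 999 genes, which left 19938. The reference is of another build than mm9, so its coordinates are given only with the promoter sequences. A model with 3 group means was fitted to 9 arrays in R 4.3.3 with limma 3.58.1, without a filter on level. Its lmFit and eBayes left 6 residual degrees of freedom and added 2.19. The code was also run on simulated data with known changes and, for each gene, the same noise in all groups. A pass mark was set there only for changes larger than those of any member. At most 4.33% of values were equal in any pair of arrays of a group. The labels name the Kusa4b10 arrays independent samples of that line. Lists were described by counts of called genes and medians, without a test of the list. The 6 pathway lists held 121 genes. Besides the members, genes were named among the 4 largest called differences of a list and comparison, and by nearness of profile. Alternatives were filters on dim genes, the mean of probe sets, quantile normalization again, centred arrays, only the compared groups, a variance trend, 1 weight per group, each array left out and a replicate block. Sdc2, Gpc1 and Gpc6 have no promoter shown.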

Additional observations from a re-analysis of the deposited data

How the results depend on the processing

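Over the alternatives, the member differences gave 457 values on the same side of the threshold, 23 that lost a call, 13 that gained one and 15 that turned sign, the last all for differences that had not passed. With 1 array left out, the number of members called was 3 to 5 for osteosarcoma against osteoblasts, 2 to 4 for osteosarcoma against pre-osteoblasts and 2 to 4 for osteoblasts against pre-osteoblasts. The differences of osteosarcoma from osteoblasts that turned were Sdc3 (-0.4793 to 0.2137 with 1 array left out, above 0 without line 2 or osteoblast replicate 2), Sdc4 (-0.0576 to 0.1569, below 0 without line 3) and Gpc5 (0.0568 with quantile normalization again, 0.0542 with centred arrays, -0.0525 to 0.0150 with 1 array left out, above 0 without line 1, line 2 or osteoblast replicate 1). Those of osteosarcoma from pre-osteoblasts were Sdc4 (-0.0394 to 0.1751, below 0 without line 3) and Gpc1 (-0.1185 to 0.2904, below 0 without line 2). Between osteoblasts and pre-osteoblasts they were Sdc1 (-0.0238 to 0.0532, below 0 without osteoblast replicate 1 or pre-osteoblast replicate 2), Sdc4 (-0.0375 to 0.0659, below 0 without the first culture of either group) and Gpc3 (-0.0056 to 0.0641, below 0 without pre-osteoblast replicate 2). With arrays centred on their medians, 3682 genes were higher and 2028 lower in osteosarcoma than in osteoblasts, against 2936 and 2523 with the deposited values. Osteoblast and pre-osteoblast cultures share replicate numbers. Deviations from the group means correlated at 0.152, 0.176 and 0.0278 for numbers 1, 2 and 3, so 1 pair was under 0.1 and the samples are taken to share only a number. As a hint from the data, 2 of 3 osteoblast and 3 of 3 pre-osteoblast cultures correlated best with the other group's culture of their number. With the replicate number as a block, in a fit of the Kusa4b10 arrays alone, 5 members were called, Gpc6 being added as lower (-0.62, adjusted p = 0.0386). The main fit of all arrays, without a block, had 4. Genes called were 5883 with the block and 5202 in the main fit. The osteosarcoma arrays were left out as the block was added, so the change is not of the block alone. Counts of the pathway lists also moved by over 1.5 times in places with dim genes left out, which leaves fewer list genes, in fits of the compared groups alone, with centred arrays, with 1 weight per group and with the block. The largest called differences of the lists, up to 4 for each list and comparison, were 70 results, and 56 of them held under every alternative. Not all 70 are printed. The called differences of list genes printed above are among these 56, except that of Sulf2 from pre-osteoblasts. The cause of these changes was not tested.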
